A study of Homo sapiens with 16 samples.

Results

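Ribosome biogenesis was followed here through 49 genes that encode subunits and initiation factors of RNA polymerase I, the proteins of small nucleolar ribonucleoprotein particles (snoRNPs), abundant nucleolar proteins, and assembly factors of the small and large ribosomal subunits. The genes were taken by symbol from the array's platform annotation, and each gene was read from the probe with the highest mean signal over all arrays. Of the 49 genes, 47 had a probe (57 probes in all) among the 16922 genes and 24526 probes of the array, and EBNA1BP2 and DDX18 were not analyzed here. Of these 47, 42 were above background on all 16 arrays. POLR1A, NPM1, TSR1, UTP20 and WDR3 were above background on none, so no change is given for them. Above background means a detection p-value, which is the share of negative control probes brighter than the probe on the same array, under 0.01.

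The cells were C4-2B/Rx2dox, a subline of the castration-resistant, LNCaP-derived prostate cancer line C4-2B. They carry a lentiviral pSLIK vector from which Flag-tagged mouse Runx2 is made once doxycycline (Dox) is added, and all 4 groups carry it. One group of 4 cultures each received vehicle (distilled water) for 24 h (vehicle day 1), 250 ng/ml Dox for 24 h (Dox day 1), vehicle for 48 h (vehicle day 2) or 250 ng/ml Dox for 48 h (Dox day 2), and each culture was hybridized to 1 Illumina BeadChip. The transduced cells were selected with hygromycin, and no cells without the Runx2 insert were given Dox on these arrays, so an effect of Runx2 and an effect of Dox itself cannot be told apart here.

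Median signals of the 16 arrays lay between 106.6 and 139.2, 40.1% to 42.2% of the probes of an array were above background, and arrays of 1 group correlated at 0.9933 to 0.9963. With 4 arrays in a group, precision is limited by their number. The array's 2 probes for human RUNX2 were above background on 1 and 0 of the 16 arrays, and whether they can bind the mouse transcript was not tested. Of the C4-2B epithelial markers, all 10 with a probe were above background on every array, while 0 of 6 stromal and 0 of 4 endothelial markers were. Of the hematopoietic markers, 1 of 5 was (LCP1), and 3 were above background on none. Some markers changed with Dox. Of the 10 epithelial markers, 5 were lower and 2 higher on day 1 and 5 and 3 on day 2, among them SLC45A3 (-1.41 and -1.78), TMPRSS2 (-0.50 and -1.21) and KLK2 (1.92 and 1.66, log2 fold change on days 1 and 2). Of all genes above background on at least 4 arrays, 21.2% were lower and 19.8% higher on day 1, and 30.3% and 29.1% on day 2. The shares of higher markers, 20% and 30%, lie near these. LCP1 was lower on both days (-0.84 and -0.40), and the endothelial marker VWF, above background on 15 arrays, on day 2 (-0.95). Their part in the results was not tested. All values below are log2 of the background-corrected, quantile-normalized signal, a difference is Dox minus vehicle on that scale, and an adjusted p is limma's with Benjamini-Hochberg adjustment over all 24526 probes, called where it is under 0.05. Levels of different probes are not set against each other.

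Ribosomes are built in the nucleolus. RNA polymerase I transcribes one long precursor rRNA, snoRNPs methylate its riboses and turn some of its uridines into pseudouridines, and a large set of assembly factors cuts and folds it while ribosomal proteins are added, until the small and the large subunit leave the nucleus. The pathway is among the most costly in a growing cell, and in cancer cells it is known as a target of MYC, which binds the E-box sequence in the promoters of many of these genes. The arrays measured the transcripts of the protein-coding genes and neither the rRNA nor the proteins. In bulk RNA, fewer cells of a type and less RNA per cell cannot be told apart.

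With Dox, most of the 47 genes were called lower on each day and none was called higher. On day 1, 36 of the 47 genes were lower, 0 were higher and 11 did not pass the test, where 11.5% of all 16922 genes were lower and 10.7% higher (21.2% and 19.8% of the 8577 genes above background on at least 4 arrays). On day 2, 32 were lower, 0 higher and 15 not called, against 16.7% of all genes lower and 16.6% higher (30.3% and 29.1% of those above background). Over the mean of both days, 37 were lower and 0 higher, against 18.2% and 17.6% of all genes. The median change of the 47 genes was -0.40 on each day, against -0.0062 and -0.0078 over all genes. Without the genes at background, the medians of the remaining 42 were -0.41 on day 1 and -0.54 on day 2. Those of the 8577 genes above background were -0.0076 and -0.015. The changes of the 42 genes ran from -1.18 (LYAR) to -0.066 (NOP10) on day 1 and from -1.66 (LYAR) to 0.094 (DDX56) on day 2. The 4 Dox arrays lay wholly below the 4 vehicle arrays for 33 genes on day 1 and for 30 on day 2 (12.6% and 16.1% of all genes did so).

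The calls of the 2 days were largely of the same genes. On both days 30 genes were lower, 6 were called on day 1 alone (IMP3, NOB1, POLR1C, RRP12, RRS1 and UBTF) and 2 on day 2 alone (NOC2L and RRN3). Besides the 5 genes not above background, 4 were called on neither day, namely DDX56, NOP10, PES1 and POLR1B. Of the 36 calls of day 1, 33 stood in every one of 23 other settings, and UBTF, IMP4 and NOB1 did not. Of the 32 calls of day 2, 29 did, and UTP14A, UTP18 and NOP2 did not.

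**Figure D1:**
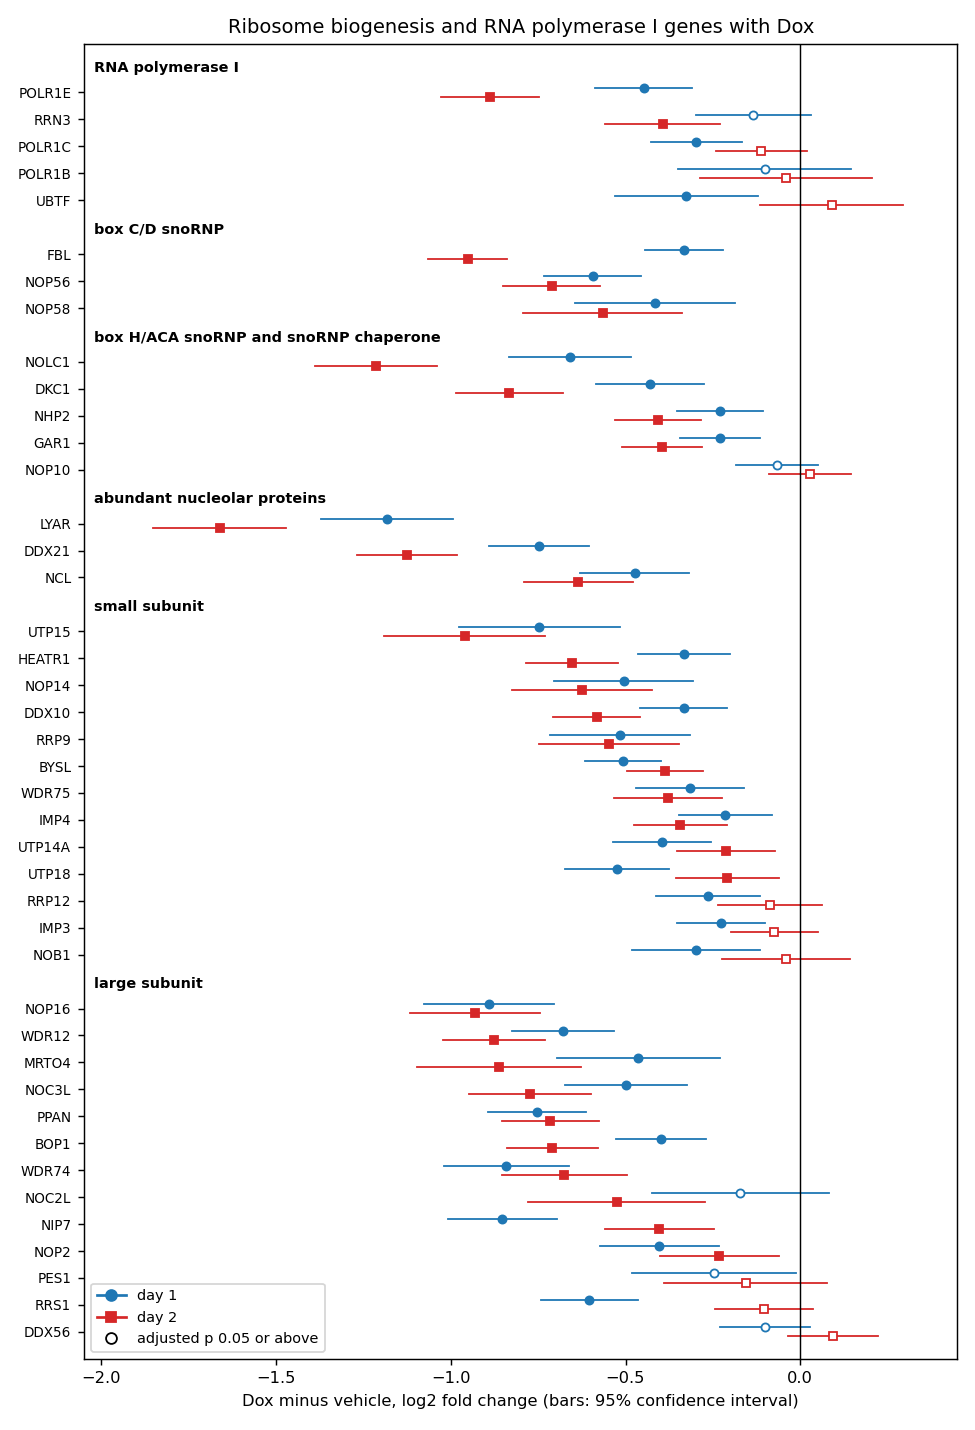
Log2 fold change of Dox against vehicle (x axis) with its 95% confidence interval for the 42 genes above background, grouped by role; circles are day 1, squares are day 2, and filled symbols have an adjusted p under 0.05. Filled symbols all lie to the left of 0, from -1.66 for LYAR on day 2 to -0.21 for UTP18 on day 2.

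The promoters of these genes were looked at for 2 short motifs, in RefSeq windows of GRCh38.p14 from 250 bases before to 50 bases after the transcription start, because most of the genes were called in one direction. Windows were at hand for 42 of the 49 genes (53 windows), and those of BOP1, DDX18, NOLC1, NOP58, POLR1E, RRP12 and RRS1 were not used here. The E-box CACGTG, a palindrome that MYC and its partner MAX bind, as do other factors of that family, was in 18 of the 53 windows (34.0%), against 7.26% of all 35116 windows and 8.37% of the 19322 windows of genes named on the array. Of the windows of the cytosolic ribosomal protein genes, 5.13% held it. The letters of a Runx site, TGTGGT, were searched on both strands, separately from the E-box. They were in 9.43% of the windows of these genes and in 13.1% of all windows. Of the windows of genes named on the array 11.1% held them, and of those of ribosomal protein genes 21.8%. The mean GC content was 61.8% in the windows of these genes, 57.5% in all windows and 61.1% in those of genes on the array.

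In the sequences below, the E-box is in capitals, each runs 5′ to 3′ on the gene's strand, and the last base is the one just before the start. LYAR and DDX21 are shown because they were among the genes that fell most. UTP18 is shown as a gene that also holds E-boxes and fell less, and NOP10 because it holds E-boxes and was not called on either day.
LYAR, chr4:4290022-4290271, minus strand: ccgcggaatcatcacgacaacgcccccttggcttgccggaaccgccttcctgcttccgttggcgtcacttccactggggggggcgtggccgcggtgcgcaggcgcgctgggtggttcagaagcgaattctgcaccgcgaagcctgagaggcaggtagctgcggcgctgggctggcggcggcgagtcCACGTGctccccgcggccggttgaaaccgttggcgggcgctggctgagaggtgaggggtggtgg
DDX21, chr10:68956397-68956646, plus strand: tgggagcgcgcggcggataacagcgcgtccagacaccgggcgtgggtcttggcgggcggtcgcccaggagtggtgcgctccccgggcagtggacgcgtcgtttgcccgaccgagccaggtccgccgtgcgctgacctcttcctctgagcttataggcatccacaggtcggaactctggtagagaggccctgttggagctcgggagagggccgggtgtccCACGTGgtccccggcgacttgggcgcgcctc
UTP18, chr17:51260296-51260545, plus strand: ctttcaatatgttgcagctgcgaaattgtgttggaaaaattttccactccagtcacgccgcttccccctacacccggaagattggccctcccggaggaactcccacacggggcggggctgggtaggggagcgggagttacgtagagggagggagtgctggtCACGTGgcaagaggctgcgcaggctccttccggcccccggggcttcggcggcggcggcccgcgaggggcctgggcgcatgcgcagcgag
NOP10, chr15:34343137-34343386, minus strand: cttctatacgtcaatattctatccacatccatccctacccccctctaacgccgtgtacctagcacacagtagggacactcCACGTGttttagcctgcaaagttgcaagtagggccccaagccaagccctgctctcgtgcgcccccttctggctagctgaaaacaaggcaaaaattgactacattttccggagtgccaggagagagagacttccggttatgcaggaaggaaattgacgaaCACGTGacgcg
The first base of the E-box lay 64 bases before the start in LYAR, 31 in DDX21, 89 in UTP18 (with another just after the start, outside the stretch shown), and 170 and 11 in NOP10. Among genes above background with a window, the 15 with an E-box had a median change of -0.46 on day 1 and -0.40 on day 2, and 13 were lower on each day, while the 21 without one had medians of -0.33 and -0.52, with 17 and 15 lower. A match of letters is a description of the window and no evidence of binding. The MYC transcript (mean ± SD, n = 4 per group) went from 9.09 ± 0.11 without to 7.98 ± 0.075 after Dox at 24 h, and from 9.03 ± 0.18 to 7.56 ± 0.18 at 48 h. It was lower by 1.11 (SE 0.10, adjusted p = 1.5e-07) and 1.48 (SE 0.10, adjusted p = 9.7e-10) on the log2 scale, and its part in the changes described here was not tested. Of 13 regulators of the pathway, MYC included, 1 was lower and 3 higher on day 1, and 4 and 4 on day 2. The shares of day 2, 30.8% each way, lie near those of all genes above background (30.3% and 29.1%), though 2 of the 13 were above background on no array. The MAX partner MXD3 fell on day 2 (-1.92, adjusted p = 2.1e-11), and TSC1, which restrains growth signalling, and the cell cycle inhibitor CDKN1A rose (0.52 and 0.44, adjusted p = 0.00017 and 0.0012).

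LYAR and DDX21 fell most among the abundant nucleolar proteins. LYAR (probe ILMN_2221564), a nucleolar zinc finger protein of growing cells, read 10.08, 9.88, 9.97 and 10.08 with vehicle and 8.72, 8.88, 8.81 and 8.85 with Dox on day 1. On day 2 it read 9.69, 9.68, 9.80 and 9.47 with vehicle and 8.06, 7.93, 8.22 and 7.78 with Dox. The 8 Dox arrays all lay below the 8 vehicle arrays, those of day 2 lowest, and the fall was 2.27-fold at 24 h (log2 fold change -1.18, SE 0.090, adjusted p = 3.2e-08) and 3.16-fold at 48 h (log2 fold change -1.66, SE 0.090, adjusted p = 9.3e-11). DDX21 (ILMN_1735461), an RNA helicase that acts in rRNA transcription and processing, read 10.95, 10.61, 10.72 and 10.72 with vehicle and 9.91, 10.05, 10.07 and 9.99 with Dox on day 1. Its day 2 values were 10.62, 10.62, 10.55 and 10.59 with vehicle and 9.38, 9.52, 9.52 and 9.48 with Dox. Here too each Dox array was below every vehicle array, with a fall of 1.68-fold (log2 fold change -0.75, SE 0.068, adjusted p = 2.7e-07) and 2.18-fold (log2 fold change -1.12, SE 0.068, adjusted p = 3.7e-10). Nucleolin (NCL), the abundant phosphoprotein of the nucleolus, read 12.17, 12.13, 12.17 and 11.996 with vehicle and 11.56, 11.74, 11.60 and 11.66 with Dox on day 1, when it was 1.39-fold lower (log2 fold change -0.47, SE 0.074, adjusted p = 0.00012). On day 2 it read 12.07, 11.83, 12.03 and 12.01 with vehicle and 11.41, 11.19, 11.30 and 11.49 with Dox and was 1.55-fold lower (log2 fold change -0.64, SE 0.074, adjusted p = 1.9e-06). The ranges of NCL were apart on both days.

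The box C/D snoRNP methylates riboses of the rRNA, and the 3 listed genes for its core proteins were lower on both days. Fibrillarin (FBL, ILMN_1719205), its methyltransferase, read 11.92, 11.95, 11.91 and 11.9996 with vehicle and 11.63, 11.65, 11.57 and 11.60 with Dox on day 1. On day 2 it read 12.12, 12.06, 11.99 and 11.98 with vehicle and 11.15, 11.05, 11.02 and 11.12 with Dox. The vehicle level of FBL was not called different between the days (adjusted p = 0.34), the Dox arrays lay below it on both and lower on day 2, and the fall went from 1.26-fold (log2 fold change -0.33, SE 0.053, adjusted p = 0.00016) to 1.94-fold (log2 fold change -0.95, SE 0.053, adjusted p = 1.4e-10). NOP56, a scaffold of the same particle, read 11.64, 11.81, 11.65 and 11.50 with vehicle and 11.06, 10.99, 11.05 and 11.11 with Dox on day 1 and was 1.51-fold lower (log2 fold change -0.59, SE 0.065, adjusted p = 2.7e-06). Its values of day 2 were 11.18, 11.20, 11.19 and 11.14 with vehicle and 10.39, 10.57, 10.39 and 10.52 with Dox, a 1.64-fold fall (log2 fold change -0.71, SE 0.065, adjusted p = 9.8e-08). Its partner NOP58 read 9.96, 9.51, 9.62 and 9.64 with vehicle and 8.99, 9.17, 9.37 and 9.55 with Dox on day 1, where the highest Dox array lay above the lowest vehicle array. The fall of NOP58 was 1.33-fold at 24 h (log2 fold change -0.42, SE 0.11, adjusted p = 0.0098) and 1.48-fold at 48 h (log2 fold change -0.57, SE 0.11, adjusted p = 0.00044), when the ranges were apart.

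Of the box H/ACA snoRNP, which turns uridines of the rRNA into pseudouridines, 3 of the 4 core proteins fell on both days and NOP10 was not called on either. Dyskerin (DKC1, ILMN_1671257), the pseudouridine synthase, read 11.47, 11.42, 11.69 and 11.49 with vehicle and 11.11, 11.21, 11.04 and 11.01 with Dox on day 1. DKC1 on day 2 read 11.25, 11.36, 11.21 and 11.17 with vehicle and 10.29, 10.53, 10.41 and 10.42 with Dox. The ranges of DKC1 did not overlap on either day, and it was 1.35-fold lower on day 1 (log2 fold change -0.43, SE 0.073, adjusted p = 0.00027) and 1.78-fold lower on day 2 (log2 fold change -0.83, SE 0.073, adjusted p = 5e-08). The core proteins GAR1 and NHP2 fell less, by 0.23 and 0.23 on day 1 (adjusted p = 0.0052 and 0.0082) and by 0.40 and 0.41 on day 2 (adjusted p = 1.3e-05 and 2.2e-05) on the log2 scale. A second NHP2 probe, above background on all arrays, gave -0.20 (adjusted p = 0.06) and -0.47 (adjusted p = 3.3e-05), and a second GAR1 probe above background on all arrays gave -0.22 (adjusted p = 0.16) and -0.37 (adjusted p = 0.0091), so both of these probes were called on day 2 alone. NOP10, the smallest core protein, read 13.10, 13.06, 13.02 and 13.06 with vehicle and 13.02, 12.97, 12.95 and 13.03 with Dox on day 1. Its day 2 values were 12.95, 12.99, 12.95 and 13.06 with vehicle and 13.08, 12.997, 12.89 and 13.09 with Dox. The ranges of NOP10 overlapped on both days, with log2 fold changes of -0.066 (95% confidence interval -0.18 to 0.052, adjusted p = 0.53) and 0.029 (-0.089 to 0.15, adjusted p = 0.8). NOLC1 (ILMN_2184640), a nucleolar phosphoprotein that acts as a chaperone of both kinds of snoRNP, read 9.62, 9.66, 9.81 and 9.60 with vehicle and 9.01, 9.05, 8.998 and 9.01 with Dox on day 1. On day 2 its values were 9.49, 9.37, 9.35 and 9.56 with vehicle and 8.46, 8.13, 8.03 and 8.30 with Dox. Every Dox array of NOLC1 was below every vehicle array, and it fell 1.58-fold at 24 h (log2 fold change -0.66, SE 0.083, adjusted p = 1.2e-05) and 2.32-fold at 48 h (log2 fold change -1.22, SE 0.083, adjusted p = 1.9e-09).

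**Figure D2:**
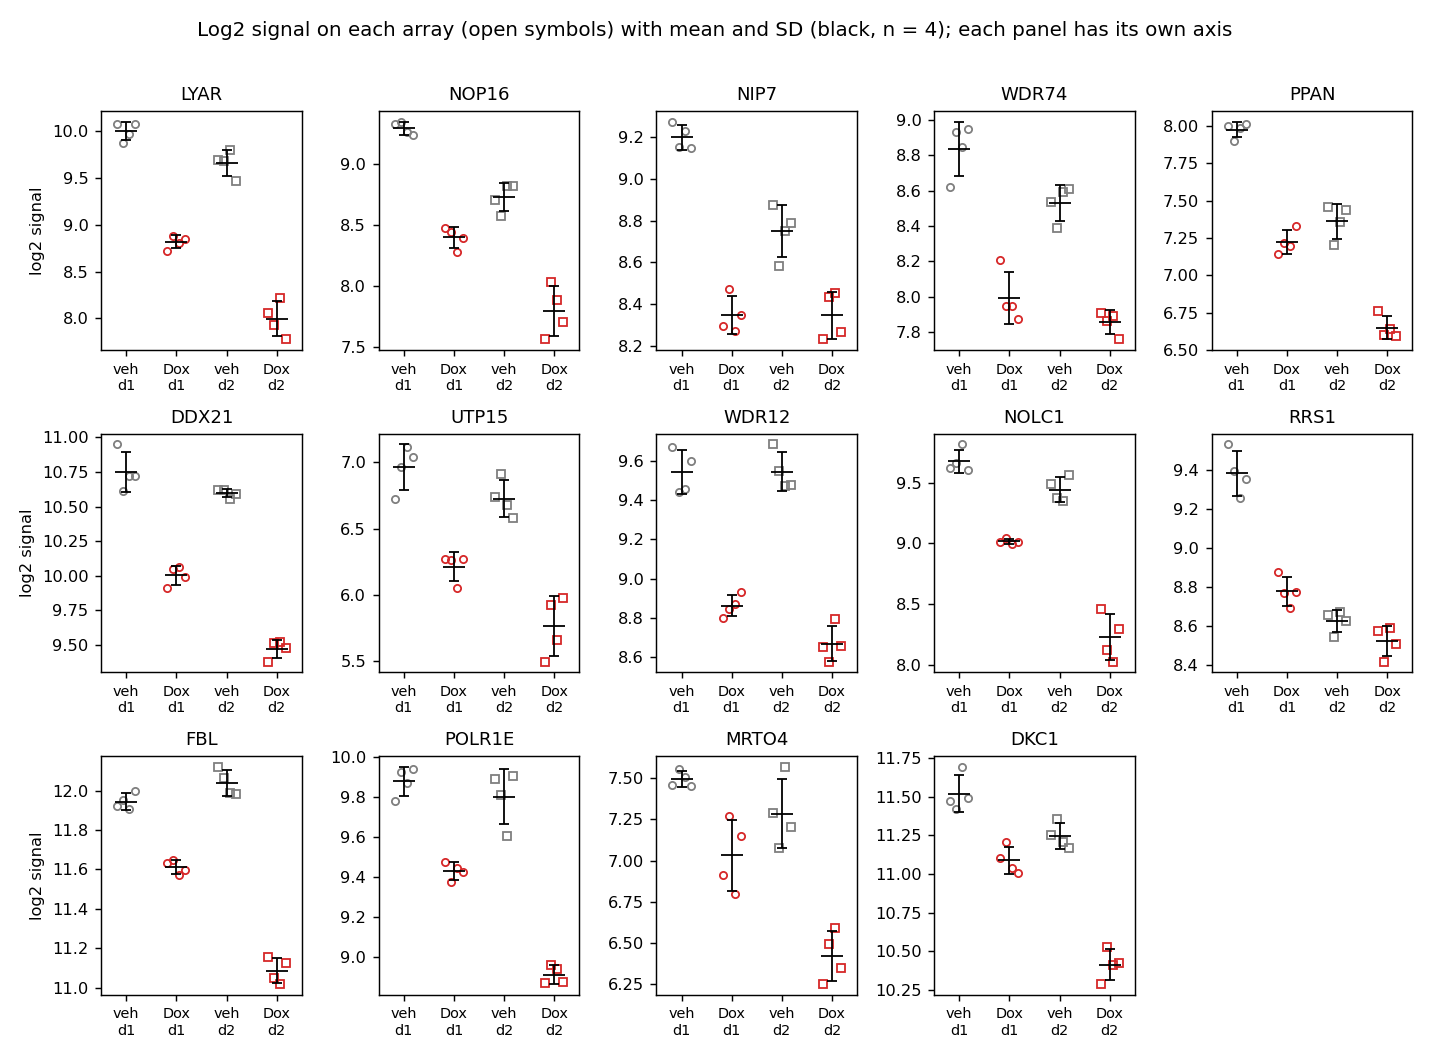
Log2 signal (y axis, its own range in each panel) of 14 genes on each of the 16 arrays, by group; open symbols are arrays and black bars the mean and SD (n = 4). The Dox mean lies below the vehicle mean of the same day in each panel, with overlap on day 2 for RRS1, where Dox read 8.42 to 8.59 and vehicle 8.55 to 8.67.

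Of the 6 genes of RNA polymerase I and its initiation factors, 3 were lower on day 1 and 2 on day 2. These are 50% and 33.3%. Of all genes above background, 21.2% and 30.3% were lower, so the share of day 2 lies near theirs, though 1 of the 6 was not above background. POLR1A, the largest subunit, was not above background on any array. POLR1E (ILMN_2110167), the PAF53 subunit of the polymerase, read 9.78, 9.92, 9.87 and 9.94 with vehicle and 9.47, 9.37, 9.45 and 9.42 with Dox on day 1. It read 9.89, 9.81, 9.60 and 9.90 with vehicle and 8.87, 8.96, 8.94 and 8.88 with Dox on day 2. Its ranges were apart on both days, and it was 1.36-fold lower on day 1 (log2 fold change -0.45, SE 0.066, adjusted p = 6.9e-05) and 1.85-fold lower on day 2 (log2 fold change -0.89, SE 0.066, adjusted p = 6e-09). POLR1B, the second largest subunit, read 6.002, 6.33, 6.31 and 5.97 with vehicle and 5.98, 6.005, 6.07 and 6.16 with Dox on day 1 and 5.62, 5.92, 5.82 and 5.67 with vehicle and 5.38, 5.77, 5.73 and 6.002 with Dox on day 2. Its ranges overlapped on both days, at -0.10 (95% confidence interval -0.35 to 0.14) and -0.042 (-0.29 to 0.21). POLR1C, a subunit shared with RNA polymerase III, was lower on day 1 (log2 fold change -0.30, SE 0.062, adjusted p = 0.0018) and not called on day 2 (log2 fold change -0.11, SE 0.062, adjusted p = 0.23). RRN3, the initiation factor also known as TIF-IA that brings the polymerase to the promoter, read 6.85, 6.93, 7.09 and 6.88 with vehicle and 6.92, 6.66, 6.76 and 6.86 with Dox on day 1, with overlap. On day 2 RRN3 read 7.08, 6.87, 6.83 and 6.92 with vehicle and 6.68, 6.48, 6.52 and 6.46 with Dox and was lower without overlap (log2 fold change -0.39, SE 0.078, adjusted p = 0.00058). UBTF, the upstream binding factor of the rRNA genes, was lower on day 1 (log2 fold change -0.33, SE 0.10, adjusted p = 0.023) and not on day 2 (log2 fold change 0.090, SE 0.10, adjusted p = 0.6). Its ranges overlapped on both days. The day 1 call of UBTF was lost on leaving out replicate 1 or 3 of vehicle day 1 (adjusted p = 0.068 and 0.075) or replicate 3 or 4 of Dox day 1 (adjusted p = 0.089 and 0.051), and its other 3 probes were not above background on any array.

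Among factors of the small subunit, 13 of 16 genes were lower on day 1 and 10 on day 2. These are 81.2% and 62.5%, with 3 of the 16 above background on none of the arrays. Of all genes above background, 21.2% and 30.3% were lower on these days. UTP15 (ILMN_1735908), a subunit of the first complex to join the growing precursor rRNA, read 6.72, 6.97, 7.12 and 7.04 with vehicle and 6.27, 6.27, 6.05 and 6.27 with Dox on day 1. On day 2 it read 6.74, 6.91, 6.68 and 6.58 with vehicle and 5.50, 5.92, 5.67 and 5.98 with Dox. The Dox ranges lay below the vehicle ranges on both days, and the falls were 1.68-fold (log2 fold change -0.75, SE 0.11, adjusted p = 6.2e-05) and 1.95-fold (log2 fold change -0.96, SE 0.11, adjusted p = 1.4e-06). Other subunits of that complex fell as well, HEATR1 by 0.33 and 0.65 and WDR75 by 0.32 and 0.38 on days 1 and 2 on the log2 scale. RRP9, a protein of the U3 snoRNP that guides the early cuts, fell by 0.52 and 0.55. The assembly factors NOP14 and BYSL and the helicase DDX10 were also lower on both days, NOP14 by 0.51 and 0.63, BYSL by 0.51 and 0.39 and DDX10 by 0.33 and 0.58. The largest adjusted p among these 6 genes was 0.0045 (WDR75 on day 1). UTP18, another processome subunit, read 8.26 ± 0.074 with vehicle and 7.74 ± 0.045 with Dox on day 1 (log2 fold change -0.52, SE 0.070, adjusted p = 2.6e-05) and 7.88 ± 0.11 and 7.67 ± 0.13 on day 2 (log2 fold change -0.21, SE 0.070, adjusted p = 0.032).

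The remaining small subunit factors changed less on at least 1 of the days, and 3 more (TSR1, UTP20 and WDR3) were not above background. UTP14A was lower by 0.40 and 0.21 (adjusted p = 0.00024 and 0.021) and IMP4 by 0.21 and 0.34 (adjusted p = 0.023 and 0.00031). IMP3, the partner of IMP4 in binding U3, was lower on day 1 (log2 fold change -0.23, SE 0.059, adjusted p = 0.01) and not called on day 2 (log2 fold change -0.074, SE 0.059, adjusted p = 0.45). RRP12, an export factor of pre-ribosomal particles, was lower on day 1 alone (-0.26, adjusted p = 0.011), as was NOB1, the nuclease that makes the final cut of the 18S rRNA (-0.30, adjusted p = 0.021). Of these calls, 4 lay near the threshold, and each was lost in more than 1 of the fits that left out an array. On day 1, leaving out replicate 1 of vehicle gave an adjusted p of 0.077 for NOB1, leaving out replicate 4 of vehicle 0.065, and leaving out replicate 2 of Dox 0.07. IMP4 on day 1 was lost without replicate 2, 3 or 4 of vehicle (adjusted p = 0.053, 0.054 and 0.077) and without replicate 2 or 4 of Dox (0.074 and 0.054). On day 2, UTP14A was lost without replicate 4 of vehicle or replicate 1 of Dox (0.074 and 0.075), and UTP18 without replicate 1 or 2 of vehicle (0.12 and 0.071) or of Dox (0.093 and 0.12). Among the authors' normalized values, with all arrays kept, IMP4 on day 1 and UTP14A and UTP18 on day 2 were lost too (0.064, 0.052 and 0.072). With median scaling, UTP14A and UTP18 were lost on day 2 (0.051 and 0.071).

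Of the 13 measured factors of the large subunit, 10 were lower on each day. That is 76.9% on each, where 21.2% and 30.3% of all genes above background were lower on days 1 and 2. PES1 and DDX56 were called on neither day, NOC2L not on day 1 and RRS1 not on day 2. NOP16 (ILMN_1704055), a nucleolar protein of early large-subunit precursors, read 9.32, 9.34, 9.26 and 9.24 with vehicle and 8.48, 8.44, 8.28 and 8.39 with Dox on day 1. On day 2 NOP16 read 8.70, 8.58, 8.82 and 8.82 with vehicle and 7.56, 8.03, 7.89 and 7.71 with Dox. It was 1.85-fold lower on day 1 (log2 fold change -0.89, SE 0.088, adjusted p = 7.9e-07) and 1.91-fold lower on day 2 (log2 fold change -0.93, SE 0.088, adjusted p = 1.5e-07), with no overlap. PPAN (ILMN_1798459), related to yeast Ssf1, read 7.998, 7.90, 7.99 and 8.01 with vehicle and 7.14, 7.22, 7.20 and 7.33 with Dox on day 1. Its values of day 2 were 7.46, 7.20, 7.36 and 7.44 with vehicle and 6.76, 6.60, 6.64 and 6.59 with Dox. PPAN was lower without overlap on both days, 1.69-fold (log2 fold change -0.75, SE 0.066, adjusted p = 1.8e-07) and 1.64-fold (log2 fold change -0.71, SE 0.066, adjusted p = 1e-07), while its vehicle level fell between the days. MRTO4 (ILMN_1689800), whose yeast counterpart holds the place of a ribosomal stalk protein, read 7.46, 7.56, 7.51 and 7.45 with vehicle and 6.91, 7.27, 6.80 and 7.15 with Dox on day 1. MRTO4 on day 2 read 7.29, 7.08, 7.57 and 7.20 with vehicle and 6.25, 6.49, 6.59 and 6.35 with Dox. The SD of MRTO4 within a group ran from 0.049 to 0.21, its ranges did not overlap on either day, and it fell 1.38-fold (log2 fold change -0.46, SE 0.11, adjusted p = 0.0053) and 1.82-fold (log2 fold change -0.86, SE 0.11, adjusted p = 6.1e-06).

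WDR74 (ILMN_1809866), a factor of late nucleolar precursors, read 8.62, 8.93, 8.84 and 8.95 with vehicle and 8.21, 7.94, 7.95 and 7.88 with Dox on day 1. Its day 2 values were 8.53, 8.39, 8.59 and 8.61 with vehicle and 7.91, 7.86, 7.89 and 7.76 with Dox. The ranges were apart on both days, with a fall of 1.79-fold (log2 fold change -0.84, SE 0.085, adjusted p = 9.4e-07) and 1.60-fold (log2 fold change -0.68, SE 0.085, adjusted p = 4.7e-06). The 3 probes of WDR74 did not give the same answer: a second gave -0.58 and -0.60 (adjusted p = 3.1e-05 and 8.1e-06), and the third, above background on all 16 arrays, gave 0.10 and -0.03 (adjusted p = 0.87 and 0.95). NOC3L, which accompanies early precursors, was lower by 0.50 and 0.77 (adjusted p = 0.00023 and 6.7e-07), and the related NOC2L by 0.52 on day 2 alone (adjusted p = 0.0022, and 0.42 on day 1). NOP2, a methyltransferase of the large rRNA, was lower by 0.40 on day 1 (adjusted p = 0.0013) and by 0.23 on day 2 (adjusted p = 0.039). The day 2 call of NOP2 was lost in 6 of the 8 fits that left out an array of that day, with adjusted p from 0.053 to 0.13, and held without replicate 3 of vehicle or replicate 4 of Dox. A second NOP2 probe, above background on all arrays, was called on both days (-0.33 and -0.35, adjusted p = 0.0075 and 0.0026). The helicase DDX56 was called on neither day (-0.10 and 0.094, adjusted p = 0.33 and 0.32).

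The PeBoW complex of PES1, BOP1 and WDR12 is needed to make the large subunit's rRNA, and 2 of its 3 transcripts were called. WDR12 (ILMN_2045729) read 9.67, 9.44, 9.46 and 9.60 with vehicle and 8.80, 8.85, 8.87 and 8.93 with Dox on day 1. On day 2 WDR12 read 9.68, 9.55, 9.47 and 9.48 with vehicle and 8.65, 8.58, 8.79 and 8.66 with Dox. The vehicle mean of WDR12 was 9.54 on both days and Dox lay below them on every array, 1.60-fold at 24 h (log2 fold change -0.68, SE 0.069, adjusted p = 1.1e-06) and 1.83-fold at 48 h (log2 fold change -0.88, SE 0.069, adjusted p = 1.4e-08). BOP1 was lower by 0.40 (SE 0.062, adjusted p = 0.00011) and 0.71 (SE 0.062, adjusted p = 4.6e-08), with no overlap on either day. PES1 read 6.50, 6.65, 6.43 and 6.47 with vehicle and 6.29, 6.17, 5.95 and 6.66 with Dox on day 1, 1 Dox array standing above all of the vehicle arrays, and it was not called on day 1 (log2 fold change -0.25, SE 0.11, adjusted p = 0.15) or on day 2 (log2 fold change -0.16, SE 0.11, adjusted p = 0.37). Without that array, replicate 4 of Dox day 1, PES1 was lower by 0.38 on day 1 (adjusted p = 0.005). Whether the change of PES1 differed from those of BOP1 and WDR12 was not tested.

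The Dox effect differed between the days for 10 of the 47 genes, by the interaction of day and treatment. It was more negative on day 2 for 8 genes and less negative for 2, which are 17% and 4.26% of the 47. Of all genes, 6.77% had a lower and 6.26% a higher value in this test. Of those above background on at least 4 arrays, 12.8% and 11.2% did. The 8 were FBL (log2 fold change -0.62, SE 0.075, adjusted p = 1.7e-05), NOLC1 (log2 fold change -0.56, SE 0.12, adjusted p = 0.0037), LYAR (log2 fold change -0.48, SE 0.13, adjusted p = 0.019), POLR1E (log2 fold change -0.44, SE 0.093, adjusted p = 0.004), DKC1 (-0.40), DDX21 (-0.38), HEATR1 (-0.32) and BOP1 (-0.31), the last 4 with adjusted p from 0.015 to 0.027. The call for BOP1 was lost in 6 of the 16 fits that left out 1 array, with adjusted p from 0.054 to 0.061, and that for HEATR1 without replicate 3 of Dox day 1 or of vehicle day 2 (0.057 and 0.054). Among the authors' normalized values the calls for FBL, NOLC1, POLR1E, NIP7 and RRS1 stood and the other 5 did not.

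The 2 genes whose effect shrank were NIP7 and RRS1, both factors of the large subunit. RRS1 (ILMN_1767658), which helps to place the 5S particle, read 9.53, 9.39, 9.25 and 9.35 with vehicle and 8.87, 8.77, 8.69 and 8.78 with Dox on day 1. On day 2 it read 8.66, 8.55, 8.67 and 8.63 with vehicle and 8.58, 8.42, 8.59 and 8.51 with Dox. The Dox arrays lay below vehicle on day 1 (log2 fold change -0.60, SE 0.066, adjusted p = 2.5e-06), the ranges overlapped on day 2 (log2 fold change -0.10, SE 0.066, adjusted p = 0.31), and the change of the effect was 0.50 (SE 0.093, adjusted p = 0.0014). Between the days RRS1 fell in vehicle by 0.76 (adjusted p = 1.4e-06) and in Dox by 0.25 (adjusted p = 0.0091), so that vehicle on day 2 lay below Dox on day 1. NIP7 (ILMN_1704305), which acts in the processing of the precursor rRNA, read 9.27, 9.15, 9.23 and 9.15 with vehicle and 8.29, 8.47, 8.27 and 8.35 with Dox on day 1. Its day 2 values were 8.88, 8.58, 8.75 and 8.79 with vehicle and 8.23, 8.44, 8.45 and 8.27 with Dox. NIP7 with Dox stood at the same mean on both days, its vehicle level fell by 0.45 (adjusted p = 0.00064), and the fall with Dox went from 1.81-fold (log2 fold change -0.85, SE 0.073, adjusted p = 1.5e-07) to 1.32-fold (log2 fold change -0.40, SE 0.073, adjusted p = 0.00028), a change of 0.45 (adjusted p = 0.0077).

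**Figure D3:**
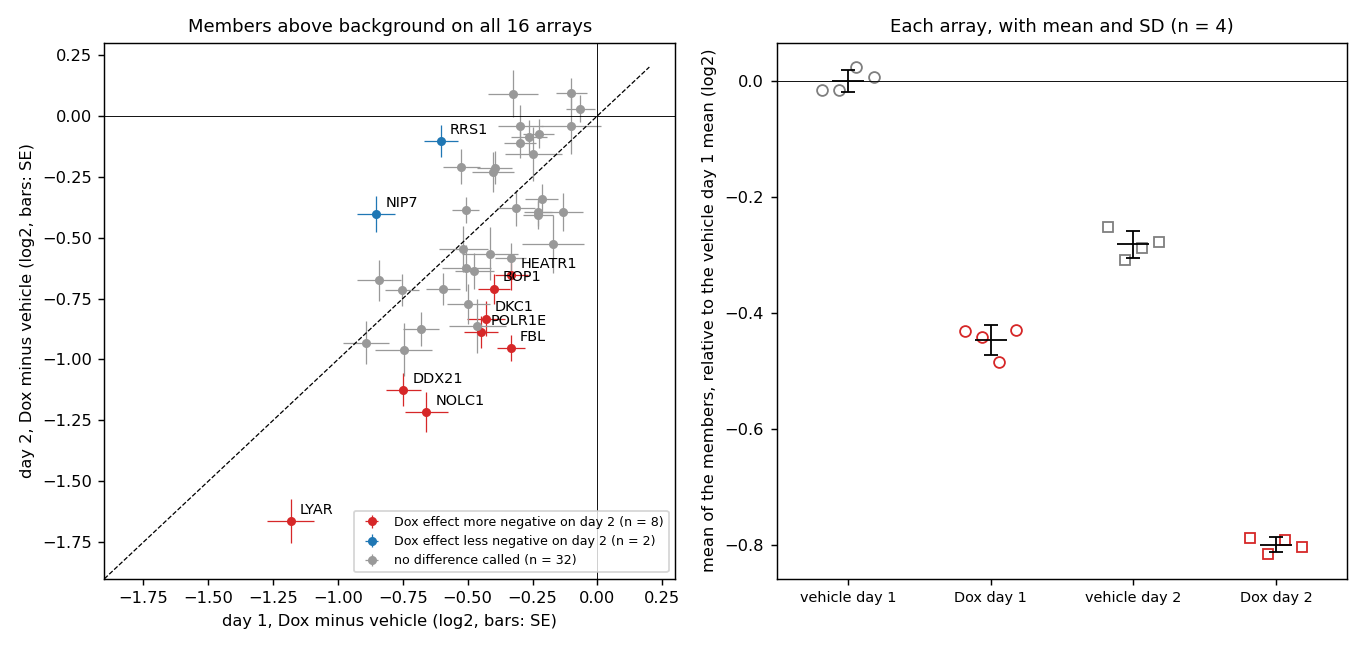
Left, the Dox effect on day 2 (y axis) against day 1 (x axis) for 42 genes, in log2 units with SE bars and the line of equal effects; right, the mean of these genes on each of the 16 arrays relative to the vehicle day 1 mean, with mean and SD (n = 4). The group means on the right are 0, -0.45, -0.28 and -0.80, and the ranges of the 4 groups do not overlap.

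Levels were also compared between the days within each arm. In vehicle, 22 of the 47 genes were lower on day 2 than on day 1 and 0 were higher (6.08% of all genes were lower and 6.33% higher), with a median of -0.23 against 0.0019 over all genes. In Dox, 29 were lower and 0 higher (11% and 11.7% of all genes), with a median of -0.29 against 0.0023. Of these calls, 15 of the 22 in vehicle and 23 of the 29 in Dox stood in every one of the 23 other settings. RRS1, NOP2, PPAN and NOP16 fell most in vehicle, by 0.76, 0.66, 0.61 and 0.56. LYAR and NOLC1 fell most in Dox, by 0.82 and 0.79. The comparisons within an arm and those within a day use the same arrays. Day 1 and day 2 differ in time in culture and perhaps in handling, which the labels do not give, and these cannot be told apart.

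The order of the 4 groups was the same for most genes. Of the 42 genes above background, 28 ran from vehicle day 1 through vehicle day 2 and Dox day 1 to Dox day 2, from highest to lowest mean, and 6 had the middle groups exchanged. The highest mean was in vehicle day 1 for 39 and in vehicle day 2 for 3 (FBL, NHP2 and WDR12), and the lowest in Dox day 2 for 37. Relative to vehicle day 1, the mean over these genes was -0.28 in vehicle day 2 (arrays from -0.31 to -0.25), -0.45 in Dox day 1 (-0.48 to -0.43) and -0.80 in Dox day 2 (-0.82 to -0.79), the arrays of vehicle day 1 lying between -0.016 and 0.024.

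Other genes of the pathway, taken from lists that did not use the 49, were called in both directions. Of all genes above background, 21.2% were lower and 19.8% higher on day 1, and 30.3% and 29.1% on day 2. Of 49 further large-subunit factors with a probe, 24 were lower and 3 higher on day 1, and 21 and 4 on day 2. The ATPase NVL (-0.88 and -1.25) and the assembly factor BRIX1 (-0.88 and -1.24) were the largest falls of day 2. The largest rises of that day were EFL1, the GTPase that frees the large subunit of its last anti-association factor (0.40 and 0.55, adjusted p = 0.0017 and 3.7e-05), and NMD3, the export adaptor (0.26 and 0.34, adjusted p = 0.016 and 0.0013). Of 40 further small-subunit factors, 17 were lower and 0 higher on day 1, and 19 and 3 on day 2, with RRP7A (-0.77 on day 2) and the methyltransferase EMG1 (-0.73) as the largest falls and DHX37 (0.33) and RRP36 (0.22) as the largest rises.

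The RNA exosome, which trims the 5.8S rRNA and other precursors, had 8 of 13 genes lower on each day and 0 higher, with EXOSC8 (-0.66 and -1.19) and EXOSC2 (-0.98 and -1.11) as the largest falls. That is 61.5% on each day, where 21.2% and 30.3% of all genes above background were lower. Of 12 snoRNP assembly factors, 3 were lower on day 1 and 8 on day 2, with WRAP53 (-0.94) and PIH1D1 (-0.58) lowest on day 2, and ZNHIT6 was higher on day 2 (0.18, adjusted p = 0.038). The lower shares are 25% and 66.7%, of which that of day 1 lies near the 21.2% of all genes above background. Of 13 further genes of RNA polymerase I, 5 were lower on each day, among them POLR1F (-0.62 and -0.47) and, on day 2, the initiation factor subunit TAF1B (-0.51). That is 38.5% of the list on each day, against the same 21.2% and 30.3%. The 1 that rose, on day 2, was POLR2L, a small subunit shared by all nuclear polymerases (0.68, adjusted p = 9.5e-07). RNA polymerase III, which makes the 5S rRNA and tRNAs, had 4 of 19 genes lower and 1 higher on day 1 and 6 and 3 on day 2. Its lower shares, 21.1% and 31.6%, lie near those of all genes above background (21.2% and 30.3%), though 3 of the 19 were above background on no array. POLR3G was above background on all vehicle arrays and on 0 of 4 of Dox day 2, so no size is given, POLR3K was lower on day 2 (-0.61), and the largest subunits POLR3A (0.25) and POLR3B (0.32) were higher.

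Of 68 cytosolic ribosomal protein genes with a probe, 1 was lower on day 1 and 13 on day 2, none was higher, and the medians were -0.05 and -0.07. These are 1.47% and 19.1% of the list, where 11.5% and 16.7% of all genes were lower. Of the 68, 66 were above background on all arrays, and of all genes above background 21.2% and 30.3% were lower. Both shares of the list lie below these. RPL36A (-1.07) and RPS7 (-0.79) were lowest on day 2, with the limit that ribosomal protein genes have many near-identical pseudogenes that a probe may also bind. Proliferation genes fell as well. Of 17, 13 were lower on day 1 and all 17 on day 2 (medians -0.34 and -1.72), and their summed signal ran from 25600 to 27200 in vehicle day 1, 20100 to 21000 in Dox day 1, 21900 to 22500 in vehicle day 2 and 7410 to 7610 in Dox day 2. Between Dox day 1 and Dox day 2 the median proliferation gene fell by 1.56 and the median of the 47 genes by 0.29. The part of proliferation in the changes of the pathway was not tested.

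**Figure D4:**
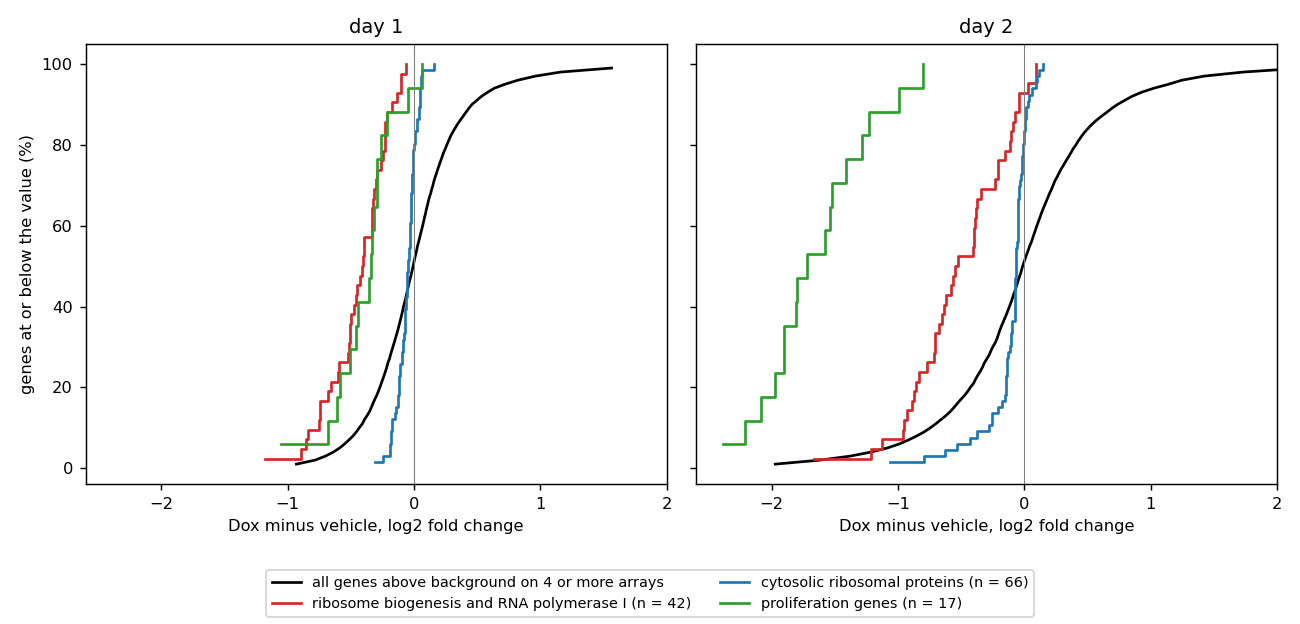
Cumulative share of genes (y axis, %) at or below a given Dox effect (x axis, log2 fold change) on each day; black is all genes above background on 4 or more arrays, red the 42 pathway genes above background, blue 66 cytosolic ribosomal protein genes and green 17 proliferation genes. Except among the largest falls, the red curve lies to the left of the black one on both days. The blue curve rises close to 0. The green curve is near the red one on day 1 (median -0.34) and far left of it on day 2 (median -1.72).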

How the data were processed

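RNA of 16 cultures, 4 per group, was measured on Illumina HumanRef-8 v3 BeadChips. The deposited table holds 1 signal intensity and 1 detection p-value per probe and array, as the authors exported them from the scanner's software without normalization. A second deposited table holds the authors' log2 values, after model-based background correction and quantile normalization (median 4.673 on every array), and was used as an alternative. Signals were corrected with limma's nec (normexp, with the 664 negative controls inferred from the detection p-values, offset 16), quantile normalized and taken as log2. The offset draws dim probes together, so changes of low signals are understated. Group means of all 4 groups were fitted in limma 3.58.1 (R 4.3.3, statmod 1.5.0) with eBayes, and p-values were Benjamini-Hochberg adjusted over 24526 probes. Scripts were tested on simulated data.

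Gene symbols come from the platform annotation, where 21834 probes had 1 symbol, 0 several and 2692 none. Groups and replicate numbers come from the labels. The study calls the replicates biological, and how far apart they were prepared is not given in the sources used here, so p-values measure the spread between these samples. No chip position was used. The members and gene lists were chosen with earlier results of these data known. Genes were given array by array if they were among the 10 largest called falls of either day or the 4 largest called changes of effect in each direction, with members of the polymerase and snoRNP groups added in part, and with up to 2 falls and 2 rises on day 2 from each other list. NCL, PES1 and the genes lost on leaving out an array were added after their values were seen. Alternatives were no background correction, an offset of 50, the authors' table, median scaling, a filter on dim probes, the mean over all probes of a gene, a replicate block, leaving out each array, and the methods' two-way analysis of variance.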

Additional observations from a re-analysis of the deposited data

Results flagged for a closer look

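The Dox effect differed between day 1 and day 2, by the interaction of day and treatment in limma (Benjamini-Hochberg adjusted p under 0.05), for 10 genes. It was more negative on day 2 for 17% of the 47 genes and less negative for 4.26%. Of all genes above background on at least 4 arrays, 12.8% and 11.2% were called in these directions. On the log2 scale, the change of the effect was -0.6194 for FBL, -0.5558 for NOLC1, -0.4792 for LYAR, -0.4401 for POLR1E, -0.4019 for DKC1, -0.3772 for DDX21, -0.3208 for HEATR1 and -0.3106 for BOP1. It was 0.4496 for NIP7 and 0.5006 for RRS1, the latter 2 having a smaller fall on day 2.

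In 3 of 188 groups of 4 arrays tested (1.6%), the gap of 1 array to its nearest neighbour passed Dixon's limit at 95%, which chance gives in about 1 group in 20. UTP15 on Dox day 1 replicate 3 was at 6.05, where the others were at 6.27, a gap of 0.988 of the range. WDR75 on vehicle day 1 replicate 3 was at 10.22 against 9.97 to 10.0 (0.881 of the range). DDX56 on Dox day 1 replicate 1 was at 9.32 against 9.12 to 9.15 (0.853 of the range).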

How the results depend on the processing

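No called change reversed its sign. Of 2382 values of single genes under the alternatives, 2332 kept their side of the threshold (14 of them, not called, changed sign), 49 lost the call and 1 gained it (PES1 on day 1 without Dox day 1 replicate 4). Leaving out 1 array gave 34 to 36 lower genes on day 1, 29 to 32 on day 2, 17 to 23 between the days in vehicle, 26 to 31 in Dox and 36 to 38 over both days. The vehicle count, 22 over all arrays, was 15 in the authors' table and 26 with the filter on dim probes. By the methods' two-way analysis of variance, 36 genes were lower and 0 higher over both days. Over the fits that left out 1 array, 6 to 10 genes had a more negative and 2 to 4 a less negative effect on day 2. The less negative count was 4 without vehicle day 1 replicate 2 or vehicle day 2 replicate 1. The medians then ran from -0.3964 to -0.3602 on day 1, -0.425 to -0.3927 on day 2, -0.1115 (without vehicle day 1 replicate 3) to -0.0456 for the change of effect, where it was -0.0633 over all arrays, -0.2537 to -0.2189 in vehicle, -0.3195 to -0.2936 in Dox and -0.4159 (without Dox day 2 replicate 1) to -0.3439 over both days.

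Without background correction the medians were -0.2921 on day 1, -0.3325 on day 2, -0.0216 for the change of effect, -0.1635 in vehicle, -0.2087 in Dox and -0.301 over both days. With median scaling they were -0.4451 on day 1, -0.4427 on day 2 and 0.0111 for the change of effect, 5 genes had a more negative effect on day 2, and between the days 1 gene was higher in vehicle and 4 in Dox. With the filter on dim probes, which leaves 42 genes, they were -0.5362 on day 2, -0.1184 for the change of effect, -0.2775 in vehicle, -0.3372 in Dox and -0.4742 over both days, and 4 genes had a less negative effect. An offset of 50 gave -0.3531 on day 1 and 1 gene higher in vehicle, and the mean over all probes -0.3339 and 1. In the authors' table, 3 genes had a more negative effect on day 2. Fewer genes enter under the filter; otherwise the cause was not tested.

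The deviations of same-numbered arrays of different groups correlated at over 0.1 in 6 of 24 pairs (r from -0.315 to 0.415, median 0.019). Of these 6, 5 were pairs of replicate 1 (0.171, 0.379, 0.335, 0.415 and 0.106), so arrays of that number tended to deviate together, while the numbers as a whole were not taken as pairs. With the replicate number as a block, 36 genes were lower on day 1, 31 on day 2 (NOP2 was lost, adjusted p = 0.068 in limma), 21 in vehicle (HEATR1 and WDR74 were lost and UBTF was gained) and 30 in Dox between the days. Genes at background have no measured change here, and a probe's signal near it limits the size that can be seen.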
